A study of Mus musculus with 20 samples.

Results

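The MHC class I presentation machinery is described here through 10 genes, found by their symbols in a table of 23329 gene symbols read from mouse glioma macrophages, normal brain microglia and blood monocytes. They are the heavy chains H2-K1 and H2-D1, the light chain B2m, the peptide transporter subunits Tap1 and Tap2, the loading factor Tapbp, the transactivator Nlrc5 and the immunoproteasome subunits Psmb8, Psmb9 and Psmb10. All 10 members passed the filter on low counts, which kept 15363 genes. Levels are given in CPM, the read count of a gene as a share of its library's size, with sizes scaled by the trimmed mean of M-values.

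Class I molecules show peptides from inside a cell to CD8+ T cells and also engage receptors of NK cells. Proteasomes cut proteins into peptides, the transporter carries the peptides into the endoplasmic reticulum, and tapasin (Tapbp) holds empty class I molecules close to the transporter until a fitting peptide binds. Interferons raise most of these genes, in part through NLRC5, and resting microglia are known for low class I levels.

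The study has 20 libraries of polyadenylated RNA in 6 groups, all C57BL/6 by label. BMDM (macrophages that derive from bone marrow) and MG (microglia, the resident macrophages of the brain) were sorted from 3 GL261 tumours, numbered 80766, 80767 and 80769, and from 3 GEMM tumours, numbered 68702, BB30101 and BB30105, 1 library per cell type and tumour. GL261 is a transplantable mouse glioma line, and the GEMM tumours follow injection of chicken DF1 cells carrying RCAS-PDGFB-HA and RCAS shP53 into the brains of Flt3:Cre Rosa26:mTmG mice at 6 weeks of age. The references are 3 libraries of normal brain MG and 5 libraries of Ly6C-high blood monocytes. Macrophages from tumours were gated as CD45+ CD11b+ Ly6C- Ly6G-, with BMDM taken as GFP+ TdTomato- and MG as GFP- TdTomato+. The split thus rests on Cre activity from the Flt3 promoter in blood-forming cells, and both cell types of a tumour carry the same alleles. The labels do not say how GL261 tumours were made or how normal MG and monocytes were sorted.

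Total counts per library ran between 18850626 and 22088979 for GL261 BMDM, between 18113450 and 20934656 for GL261 MG, between 30048409 and 32913488 for GEMM BMDM, between 23064781 and 36297826 for GEMM MG, between 26421803 and 30391652 for normal MG and between 5077787 and 7801073 for monocytes. Summed microglia markers (8 genes) were at 694 to 1502 CPM in GL261 BMDM and 2145 to 7939 CPM in GL261 MG, at 2741 to 5326 CPM in GEMM BMDM and 12003 to 19865 CPM in GEMM MG, at 29390 to 33435 CPM in MG of normal brain and at 256 to 343 CPM in blood monocytes. Both libraries of GL261 tumour 80769 stand apart, since their summed monocyte markers (6 genes found) were 22996 CPM in BMDM and 4481 CPM in MG, against 317 and 502 CPM in the other GL261 BMDM and 32.6 and 38.1 CPM in the other GL261 MG. In blood monocytes the same sum was 4610 to 7181 CPM, below that of BMDM 80769, so it does not measure monocyte content. Itga4 of this list was at 72.0 to 87.6 CPM in GL261 BMDM, so other genes of the list carry the high sum. Monocyte libraries 64820 and 64821 hold 13.5% and 14.3% of their counts on the ribosomal RNA gene Rn45s. Outside the monocytes Xist was at 2.88 CPM or less and Ddx3y at 36.3 to 223 CPM, against Xist at 142 to 645 CPM and Ddx3y at 2.76 CPM or less in monocytes, so comparisons with them differ in sex as well as in tissue.

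The genes lie in 3 places of the genome (RefSeq positions, GRCm38.p6). The MHC region of chromosome 17 holds Tapbp (33919478 to 33929290), H2-K1 (33996012 to 34000619), Psmb9 (34182030 to 34187330), Tap1 (34187556 to 34197225), Psmb8 (34198195 to 34201454), Tap2 (34204479 to 34216321) and H2-D1 (35263094 to 35267497). Nlrc5 (94434335 to 94527272) and Psmb10 (105935728 to 105938392) are on chromosome 8, and B2m (122147687 to 122153082) is on chromosome 2. Psmb9 and Tap1 point away from each other, with 225 bases between their annotated starts.

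Promoter windows of 300 bases from RefSeq (GRCm38.p6, 250 bases before to 50 after the start) were found for 8 of the 10 members, while Tap2 and Nlrc5 had none. Those of both chains of the class I molecule are shown, since these are its structural genes, and that of Tap1 and Psmb9, since the pair shares it. H2-K1 had 2 windows, and the 1 with its start nearest to the GENCODE gene start was used. That window lies within the RefSeq span of H2-K1 given above. Capitals mark matches on either strand to 4 motifs: the interferon regulatory factor core AANNGAAA, the NF-kB core GGGATTCC, the X2-like core TGACG and the Y box CCAAT, none of which overlap another motif in these windows. The last pair belongs to the kind of promoter module, with the S and X boxes, through which NLRC5 acts.
H2-K1, chr17:34000298-34000597, minus strand: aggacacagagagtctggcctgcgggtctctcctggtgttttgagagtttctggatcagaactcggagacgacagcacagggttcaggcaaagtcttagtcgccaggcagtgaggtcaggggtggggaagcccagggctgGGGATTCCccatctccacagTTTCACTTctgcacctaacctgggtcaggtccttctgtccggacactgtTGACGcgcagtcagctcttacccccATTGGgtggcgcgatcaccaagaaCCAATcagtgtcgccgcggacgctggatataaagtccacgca
H2-D1, chr17:35262844-35263143, plus strand: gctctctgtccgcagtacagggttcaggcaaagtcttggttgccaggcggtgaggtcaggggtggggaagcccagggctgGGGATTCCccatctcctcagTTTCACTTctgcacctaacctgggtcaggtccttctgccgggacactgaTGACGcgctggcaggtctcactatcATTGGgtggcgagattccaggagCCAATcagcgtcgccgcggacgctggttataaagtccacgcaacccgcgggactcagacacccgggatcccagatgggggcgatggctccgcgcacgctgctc
B2m, chr2:122147437-122147736, plus strand: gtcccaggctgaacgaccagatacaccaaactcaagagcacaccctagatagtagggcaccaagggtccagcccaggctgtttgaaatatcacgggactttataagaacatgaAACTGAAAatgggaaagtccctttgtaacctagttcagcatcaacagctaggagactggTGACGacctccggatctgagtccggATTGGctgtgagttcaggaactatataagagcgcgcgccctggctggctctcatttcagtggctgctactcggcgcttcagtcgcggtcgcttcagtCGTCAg
Tap1 and Psmb9 shared, chr17:34187306-34187580, plus strand: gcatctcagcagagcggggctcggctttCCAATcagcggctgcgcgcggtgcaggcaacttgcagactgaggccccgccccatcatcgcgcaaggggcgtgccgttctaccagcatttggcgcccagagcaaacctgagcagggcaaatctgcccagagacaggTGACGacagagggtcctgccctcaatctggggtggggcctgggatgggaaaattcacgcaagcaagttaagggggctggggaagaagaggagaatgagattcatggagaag

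The H2-K1 and H2-D1 windows align over 228 columns, 206 of them identical (90.4%), and both carry the NF-kB core, the interferon regulatory factor core, the X2-like core and the Y box in the same order. B2m holds 3 of these motifs and lacks the letters of the NF-kB core in this window. The shared Tap1 and Psmb9 window has an X2-like core and a Y box. Over the 8 members with a window, TGACG was found in 5, CCAAT in 6, AANNGAAA in 3 and GGGATTCC in 2, against 21%, 37.9%, 24.2% and 1.07% of 27025 mouse promoter windows. A further motif searched, TTCNNNGAA, was found in 1 member (Psmb8), against 8.47% of windows. The windows are not independent, since Tap1 and Psmb9 are both counted for the same sites. Both GGGATTCC matches lie in the similar H2-K1 and H2-D1 windows, so these counts do not show enrichment. A match in letters is a description of sequence and does not show binding.

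Set per kilobase of merged exons, so that genes can be compared, B2m was the most abundant member in each group except monocytes, with mean levels per kilobase of 6880 CPM in GL261 BMDM, 6607 in GL261 MG, 6464 in GEMM BMDM, 9373 in GEMM MG, 2759 in MG of normal brain and 2314 in blood monocytes. In monocytes H2-D1 stood above it at 3587 CPM per kilobase. Nlrc5 was the least abundant member in each group, from 12.8 CPM per kilobase in GL261 BMDM to 0.450 in normal MG. Together the 10 genes took 1.58% to 1.97% of all counts in GL261 BMDM, 1.48% to 2.30% in GL261 MG, 1.24% to 1.42% in GEMM BMDM, 1.38% to 1.71% in GEMM MG, 0.442% to 0.501% in MG of normal brain and 1.32% to 1.71% in blood monocytes. Normal MG thus had the lowest share, and their range touched no other group's.

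**Figure D1:**
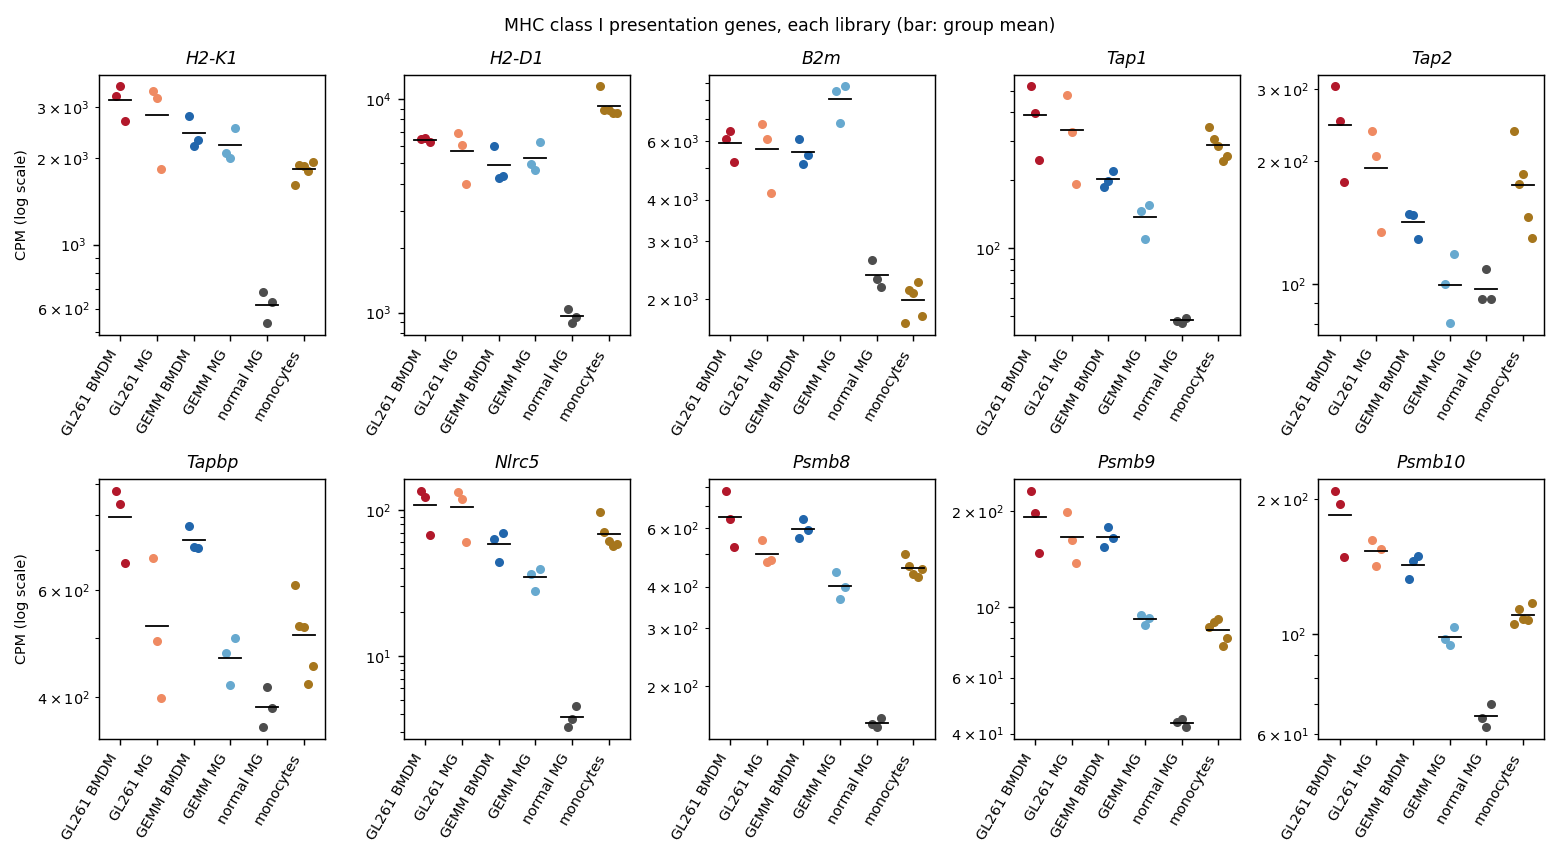
Level of each of the 10 genes in CPM (log axis, own scale per gene) in every library, grouped as GL261 BMDM, GL261 MG, GEMM BMDM, GEMM MG, normal MG and monocytes, with a bar at the group mean. Normal MG have the lowest mean for 9 genes (8 on total counts, where GEMM MG are lowest for Tap2), B2m being the exception with a lower mean in monocytes (1990 CPM, against 2373 CPM in normal MG), and Nlrc5 spans the widest range, from 3.26 to 136 CPM.

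In tumour MG compared with normal MG, class I genes rose in both models. The test was edgeR's quasi-likelihood test over all libraries, and a gene is called at a Benjamini-Hochberg adjusted p under 0.05. In GL261 MG all 10 members were called higher, where 30.6% of the 15363 genes tested were called higher and 27.2% lower, and the median log2 fold change was 1.82 over the members and 0.01 over all genes. In GEMM MG 8 members were called higher and none lower, against 23% and 20.9% of all genes, with medians of 1.45 over the members and -0.02 over all genes. Both comparisons use the same 3 normal MG libraries. In bulk samples more RNA per cell and more cells that express a gene cannot be told apart.

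Nlrc5, the transactivator that drives class I promoters, changed the most among the members. It was at 133, 120 and 60.8 CPM in GL261 MG of tumours 80766, 80767 and 80769, and at 36.7, 28.1 and 39.4 CPM in GEMM MG, against 3.26, 3.68 and 4.52 CPM in normal MG. No library of either tumour group came near the normal range, and the GL261 libraries lay above the GEMM ones. The log2 fold change against normal MG was 4.77 ± 0.35 (SE) in GL261 MG (adjusted p = 9.79e-09, edgeR) and 3.18 ± 0.32 in GEMM MG (adjusted p = 8.79e-07). Even in normal MG the gene was read 94 to 132 times per library, so its low level there is not at the limit of detection.

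The heavy chains, which hold the peptide, rose in both models. H2-K1 was at 3414, 3217 and 1822 CPM in GL261 MG and at 2072, 2003 and 2545 CPM in GEMM MG, against 684, 536 and 632 CPM in normal MG. H2-D1 was at 6934, 6074 and 4007 CPM in GL261 MG and at 4930, 4625 and 6311 CPM in GEMM MG, against 1034, 897 and 949 CPM in normal MG. For both genes the lowest tumour library was well above the highest normal one, and within GL261 MG tumour 80769 was lowest. The log2 fold changes were 2.19 ± 0.21 for H2-K1 and 2.56 ± 0.21 for H2-D1 in GL261 MG, and 1.84 ± 0.21 and 2.46 ± 0.21 in GEMM MG (SE, all adjusted p of 2.54e-06 or less, edgeR).

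The heavy chain transcripts align with 88.4% identity, and reads from such copies can be split between genes, so the balance of H2-K1 to H2-D1 is uncertain. H2-K1 made up 31.3% to 34.6% of the counts on both genes in GL261 MG and 28.7% to 30.2% in GEMM MG, against 37.4% to 40.0% in normal MG. Monocytes stood far from the other groups, at 12.3% to 18.5%.

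B2m, the light chain shared by all classical class I molecules, rose in both models as well. It was at 6754, 6117 and 4176 CPM in GL261 MG and at 8550, 6825 and 8807 CPM in GEMM MG, against 2630, 2307 and 2181 CPM in normal MG. The log2 fold change was 1.26 ± 0.19 in GL261 MG (adjusted p = 2.06e-05) and 1.76 ± 0.19 in GEMM MG (adjusted p = 1.60e-06, edgeR). The ratio of B2m counts to the summed heavy chain counts was 0.653 to 0.716 in GL261 MG and 0.994 to 1.22 in GEMM MG, against 1.38 to 1.61 in normal MG. These ranges did not overlap, and the ratio was lower still in monocytes, at 0.130 to 0.217.

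Of the transporter subunits, whose proteins work as a pair, Tap1 was called in both models and Tap2 in GL261 MG. Tap1 was at 479, 328 and 193 CPM in GL261 MG and at 146, 110 and 156 CPM in GEMM MG, against 47.9, 46.8 and 49.1 CPM in normal MG. Tap2 was at 236, 206 and 135 CPM in GL261 MG and at 100.01, 80.7 and 119 CPM in GEMM MG, against 92.0, 109 and 92.1 CPM in normal MG. Tap1 libraries of both models lay above every normal library, whereas for Tap2 that held in GL261 MG alone. Tap1 rose by 2.80 ± 0.29 on the log2 scale in GL261 MG (adjusted p = 3.66e-07) and by 1.51 ± 0.28 in GEMM MG (adjusted p = 0.000268, edgeR). Tap2 rose by 0.97 ± 0.24 in GL261 MG (adjusted p = 0.00194), and in GEMM MG its log2 difference was 0.03, with a 95% interval from -0.46 to 0.53. The ratio of Tap1 to Tap2 counts was 1.44 to 2.03 in GL261 MG and 1.31 to 1.46 in GEMM MG, against 0.429 to 0.533 in normal MG.

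Tapbp, which bridges the transporter and the class I molecule, had the smallest fold change of the members in GL261 MG. It was at 678, 494 and 398 CPM in GL261 MG and at 473, 419 and 500 CPM in GEMM MG, against 356, 416 and 383 CPM in normal MG. The GL261 and normal ranges overlapped. Its log2 fold change was 0.44 ± 0.18 in GL261 MG (adjusted p = 0.0458, edgeR) and 0.27 ± 0.18 in GEMM MG (adjusted p = 0.246). The GL261 call was lost on leaving out GL261 MG 80766 or 80767 or any one of the 3 normal MG libraries, without the filter on low counts or with the compared groups alone, when 9 members stayed called, and it held with tumour 80769 left out (0.61, adjusted p = 0.00577).

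The immunoproteasome subunits replace the 3 catalytic subunits of the standard proteasome after interferon exposure. Psmb8 was at 552, 474 and 481 CPM in GL261 MG and at 442, 367 and 398 CPM in GEMM MG, against 154, 150.4 and 160 CPM in normal MG. Psmb9 was at 199, 163 and 138 CPM in GL261 MG and at 94.5, 88.1 and 92.3 CPM in GEMM MG, against 43.5, 44.6 and 42.0 CPM in normal MG. Psmb10 was at 162, 142 and 155 CPM in GL261 MG and at 97.5, 94.6 and 104 CPM in GEMM MG, against 65.0, 62.2 and 69.9 CPM in normal MG. In all 3 genes the groups formed separate bands, with GL261 MG highest and normal MG lowest. The share of all genes that formed such bands was not counted. Psmb8 was not called between GL261 MG and GEMM MG (log2 difference 0.32, adjusted p = 0.0854, edgeR). The log2 fold changes of Psmb8, Psmb9 and Psmb10 were 1.70 ± 0.14, 1.94 ± 0.16 and 1.22 ± 0.12 in GL261 MG and 1.38 ± 0.14, 1.08 ± 0.15 and 0.59 ± 0.12 in GEMM MG (SE, all adjusted p of 0.000683 or less, edgeR).

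**Figure D2:**
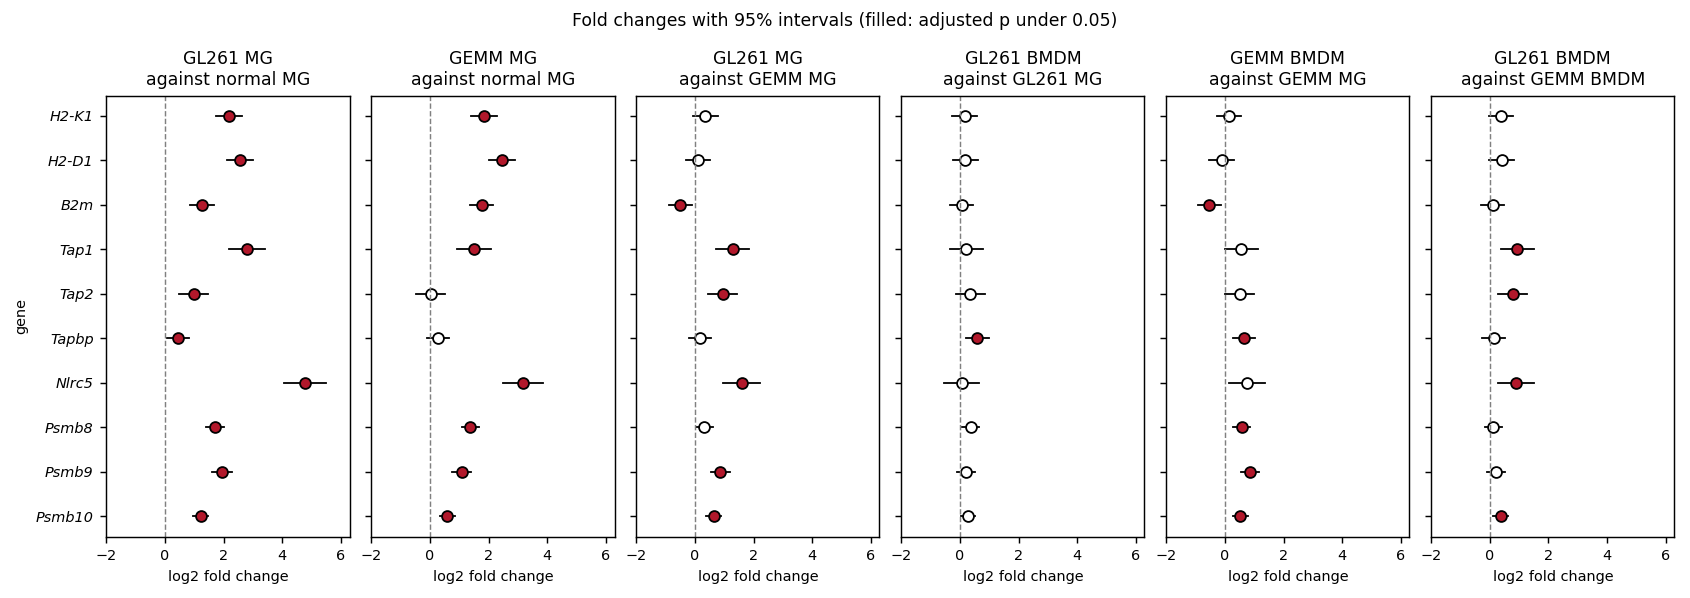
Log2 fold change with its 95% interval for each gene in 6 comparisons (edgeR, one panel per comparison), filled points having an adjusted p under 0.05. Points lie far to the right for tumour MG against normal MG, where Nlrc5 reaches 4.77, and close to 0 for GL261 BMDM against GL261 MG.

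The standard proteasome subunits rose too, so each immunoproteasome subunit was also read as a ratio of counts to its standard counterpart within each library. Psmb8 to its counterpart Psmb5 was at 7.24 to 11.1 in GL261 MG and 6.27 to 7.30 in GEMM MG, against 5.13 to 5.80 in normal MG. Psmb9 to Psmb6 was at 0.421 to 0.688 in GL261 MG and 0.223 to 0.311 in GEMM MG, against 0.324 to 0.361 in normal MG. The Psmb9 ratio of GEMM MG was therefore below that of normal MG although Psmb9 itself was higher. Psmb10 to Psmb7 was at 1.41 to 1.94 in GL261 MG and 0.892 to 1.00 in GEMM MG, against 1.19 to 1.47 in normal MG, and again GEMM MG were lowest. These are ratios of RNA counts, which do not measure subunits in assembled proteasomes, and they were given no test.

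**Figure D3:**
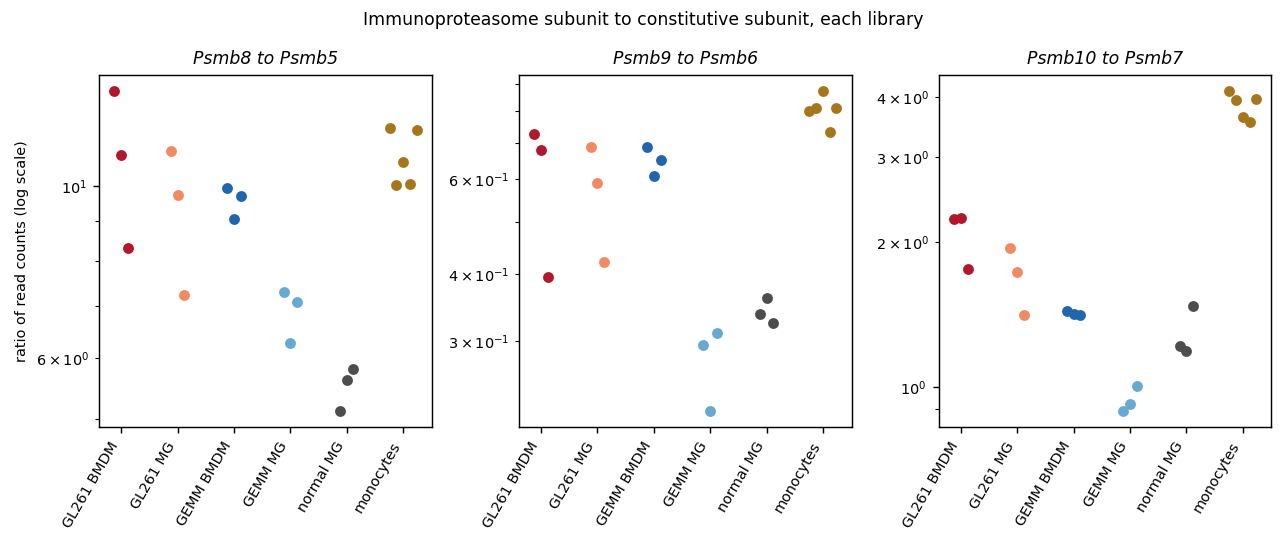
Ratio of read counts of each immunoproteasome subunit to its standard counterpart (log axis) in every library of the 6 groups. GEMM MG have the lowest ratios for Psmb9 to Psmb6 (0.223 to 0.311) and Psmb10 to Psmb7 (0.892 to 1.00), while monocytes have the highest Psmb10 to Psmb7 ratios (3.56 to 4.13).

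Other genes of the pathway were read from lists chosen with earlier results of these data known. All 7 genes of the standard proteasome and its activators rose in GL261 MG and in GEMM MG, with medians of 0.97 and 1.06 on the log2 scale. Psme2, a subunit of the proteasome activator PA28, rose by 2.07 in GL261 MG and 1.34 in GEMM MG, its partner Psme1 by 1.44 and 1.42, and the catalytic subunit Psmb6 by 1.23 and 1.40. Of 6 loading and trimming genes 1 rose in GL261 MG, the tapasin-like editor Tapbpl (1.06, adjusted p = 6.55e-05, edgeR). In GEMM MG 4 of the 6 rose, among them the chaperones Calr (0.80), Canx (0.50) and Pdia3 (0.45), and no gene of this list fell in either model.

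Of 10 other class I and class I-like genes, 8 were tested. In GL261 MG 5 rose and 1 fell, and H2-Q6 (4.49), H2-T10 (4.03) and H2-T23 (1.74), all non-classical heavy chains, had the smallest adjusted p. In GEMM MG 6 rose and 1 fell, led by H2-Q6 (3.76), H2-T10 (2.15) and H2-M3 (1.19), the last of which presents formylated peptides. Genes of the H2-Q and H2-T clusters resemble each other and the heavy chains, and their counts are uncertain for the same reason.

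The regulators of class I transcription moved in both directions. Of 14, 2 rose and 6 fell in GL261 MG, and 3 rose and 7 fell in GEMM MG. Ifngr1, a chain of the interferon gamma receptor, fell by 2.499 in GL261 MG and by 1.57 in GEMM MG on the log2 scale. Stat2, part of the complex that answers type I interferon, rose by 2.25 in GL261 MG. The kinase Jak1 fell by 1.49 in GL261 MG and the repressor Irf2 fell by 0.98 in GEMM MG. Of 6 genes linked to cross-presentation 2 rose in GL261 MG and 3 in GEMM MG, and none fell, with the NADPH oxidase subunit Cybb (5.04 and 4.53) and the thiol reductase Ifi30 (2.55 and 2.74) rising in both.

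GL261 MG were then compared with GEMM MG. The transporter, the transactivator and 2 immunoproteasome subunits were higher in GL261 MG, while the heavy chains were not called. In all 5 members were called higher and 1 lower, against 18.8% and 15.5% of all genes. Nlrc5 was higher by 1.59 ± 0.30 on the log2 scale (adjusted p = 0.000625), Tap1 by 1.28 ± 0.27 (adjusted p = 0.00168), Tap2 by 0.94 ± 0.24 (adjusted p = 0.00528), Psmb9 by 0.86 ± 0.15 (adjusted p = 0.000368) and Psmb10 by 0.63 ± 0.12 (adjusted p = 0.000628, edgeR). Each of these 5 separated the groups fully in the values above and was called in all 11 alternatives, 1 of which (without tumour 80769) was chosen after seeing the data. The share of all genes that separated these groups was not counted.

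B2m was lower in GL261 MG by a log2 difference of -0.50 ± 0.19 (adjusted p = 0.0434, edgeR). This call was lost without GEMM MG 68702 or BB30105, without GL261 MG 80767 or 80769, without the filter on low counts (adjusted p = 0.0689) and with the compared groups alone (adjusted p = 0.205), and with both libraries of tumour 80769 left out the difference was -0.33 (adjusted p = 0.159). H2-K1 differed by 0.35, with a 95% interval from -0.07 to 0.78, and it was called without tumour 80769 (0.59, adjusted p = 0.00961). H2-D1 differed by 0.10, with an interval from -0.32 to 0.52. TMM factors were 1.17 to 1.28 in GL261 MG and 0.881 to 0.946 in GEMM MG, so differences between these groups depend on the scaling. On total counts GEMM MG still had the highest mean of B2m among the 6 groups, and GL261 MG had the highest mean of H2-K1. No test was run on total counts. The labels give no sequencing batch, and tumour model and library preparation cannot be told apart here.

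Among related genes, Psme2 (0.73) and Tapbpl (1.11) were higher in GL261 MG, as were H2-T10 (1.88), H2-T23 (0.73) and Stat2 (1.33). Calr (-0.85), Pdia3 (-0.68), the class I-like gene Mr1 (-1.32), Ifngr2 (-1.21) and Jak1 (-0.75) were lower in GL261 MG. By list, loading and trimming genes had 1 of 6 higher and 3 lower, and the standard proteasome with its activators 1 of 7 higher and 1 lower. Other class I genes had 2 of 8 higher and 1 lower, regulators 3 of 14 higher and 4 lower, and cross-presentation genes none of 6 higher and 2 lower.

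BMDM and MG of the same tumour were compared next, to ask whether macrophages of different origin differ in the same environment. In GEMM tumours the 3 immunoproteasome subunits and Tapbp were higher in BMDM and B2m was lower. The test called 4 members higher and 1 lower, against 12.7% and 8.1% of all genes, with medians of 0.54 over the members and 0.01 over all genes. With the tumour number as a block, 8 members were called, 7 higher and 1 lower, Tap1, Tap2 and Nlrc5 being added (adjusted p = 0.0168, 0.0378 and 0.001795). The block also raised the calls over all genes, to 2179 higher and 1496 lower, from 1949 and 1245 without it.

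Psmb9 was at 154, 179 and 165 CPM in GEMM BMDM of tumours 68702, BB30101 and BB30105, against 94.5, 88.1 and 92.3 CPM in GEMM MG. Every BMDM library was above every MG library, and the log2 fold change was 0.86 ± 0.15 (adjusted p = 0.000569, edgeR), called in all 11 alternatives. Tapbp was at 766, 706 and 703 CPM in GEMM BMDM, against 473, 419 and 500 CPM in GEMM MG, a log2 fold change of 0.65 ± 0.18 (adjusted p = 0.0175). Psmb8 was at 560, 641 and 595 CPM in GEMM BMDM, against 442, 367 and 398 CPM in GEMM MG, a log2 fold change of 0.57 ± 0.14 (adjusted p = 0.00700). Psmb10 was at 133, 146 and 149 CPM in GEMM BMDM, against 97.5, 94.6 and 104 CPM in GEMM MG, a log2 fold change of 0.53 ± 0.12 (adjusted p = 0.00381, edgeR). None of these 4 overlapped between the groups. That held for 8 of the 10 members, B2m and the uncalled Tap1, Tap2 and Nlrc5 included, and the same count over all genes was not made.

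B2m was at 6120, 5110 and 5448 CPM in GEMM BMDM, against 8550, 6825 and 8807 CPM in GEMM MG. It was lower in BMDM of each of the 3 tumours, with log2 differences of -0.69 to -0.42 within a tumour, and the fitted difference was -0.54 ± 0.19 (adjusted p = 0.0484, edgeR). The heavy chains were not called, and the difference was 0.14 for H2-K1 (95% interval -0.29 to 0.56) and -0.12 for H2-D1 (-0.54 to 0.31). The ratio of B2m to heavy chain counts was 0.698 to 0.815 in GEMM BMDM, against 0.994 to 1.22 in GEMM MG.

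Leaving out 1 library left 2 to 4 members called. Tapbp was lost in each of the 6 cases, B2m without MG 68702, MG BB30105, BMDM BB30101 or BMDM BB30105, Psmb8 without MG BB30101, BMDM BB30101 or MG BB30105, and Psmb10 without MG 68702 or MG BB30101. The B2m call was also lost without the filter on low counts (adjusted p = 0.0827) and with the compared groups alone (adjusted p = 0.0619). Markers of other cells also moved with the comparison. The 8 dendritic cell markers summed to 609 to 1580 CPM in GEMM BMDM, against 19.8 to 81.1 CPM in GEMM MG, and the 6 NK cell markers to 61.7 to 184 CPM, against 5.02 to 11.2 CPM, with none of either list at 0 in the groups. The 8 T cell markers found summed to 34.3 to 78.5 CPM in GEMM BMDM, against 2.51 to 10.95 CPM in GEMM MG. Neutrophil markers reached 1982 CPM in BMDM 68702, against 8.24 and 82.7 CPM in the other GEMM BMDM. Their part in the result was not tested.

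Of the related lists, cross-presentation genes had 4 of 6 higher in GEMM BMDM, led by Wdfy4 (1.97), Cybb (2.89) and Batf3 (1.26), the first and last of which are known for roles in dendritic cells. Regulators had 3 of 14 higher, Jak2 (2.51), Ptpn2 (0.59) and Stat2 (0.80), and none lower. Psme1 (0.41) and Psme2 (0.39) were higher and Psmb6 (-0.39) lower among the 7 proteasome genes. Cd1d1, which presents lipids, was higher (1.06) as the 1 call of 8 other class I genes, and none of 6 loading genes was called.

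In GL261 tumours 1 of the 10 members was called between the cell types, Tapbp, higher in BMDM, against 10.7% of all genes called higher and 6.81% lower. Medians were 0.21 over the members and -0.08 over all genes. Tapbp was at 877, 835 and 665 CPM in GL261 BMDM of tumours 80766, 80767 and 80769, against 678, 494 and 398 CPM in GL261 MG. The ranges overlapped, yet BMDM were higher in each of the 3 tumours, with a log2 fold change of 0.60 ± 0.18 (adjusted p = 0.0303, edgeR).

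That call was lost without BMDM 80766, BMDM 80767, MG 80767 or MG 80769, without the filter on low counts (adjusted p = 0.0952) and with the compared groups alone (adjusted p = 0.204). With both libraries of tumour 80769 left out Tapbp had an adjusted p of 0.0582, while Psmb8 (0.47, adjusted p = 0.0408) and Psmb10 (0.41, adjusted p = 0.0277) were called. Nlrc5 was at 136, 122 and 67.6 CPM in GL261 BMDM, against 133, 120 and 60.8 CPM in GL261 MG, so the spread between tumours was wider than that between the cell types of a tumour. Its log2 difference was 0.05, with a 95% interval from -0.56 to 0.66. Of the related genes Pdia3 (0.45), Jak2 (1.53), Cybb (1.92) and Ifi30 (0.95) were higher in GL261 BMDM, and no gene of the 5 lists was lower.

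**Figure D4:**
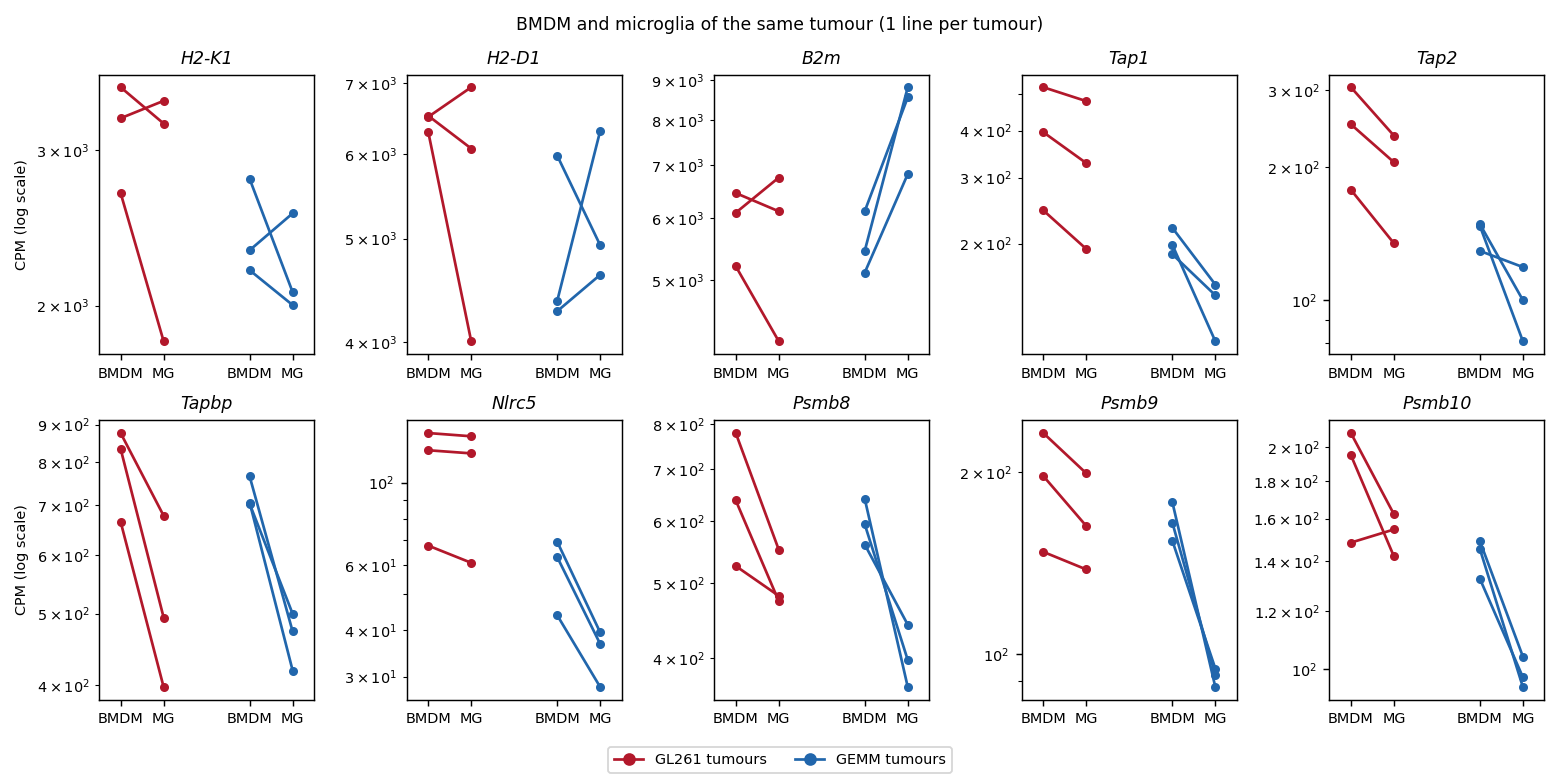
Level of each gene in CPM (log axis, own scale per gene) in BMDM and MG, 1 line per tumour, GL261 tumours left and GEMM tumours right in each panel. For Psmb9 the 3 GEMM tumours have 154 to 179 CPM in BMDM, against 88.1 to 94.5 CPM in MG, while the GL261 lines run at different heights, with tumour 80769 lowest for all 10 genes in BMDM and for 8 in MG, Psmb8 and Psmb10 being the exceptions.

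Whether the BMDM to MG difference itself depended on the model was tested as an interaction. No member was called by edgeR or by DESeq2, where edgeR called 0.605% of all genes higher and 1.02% lower, and 2 members had an unadjusted p under 0.05. These were Psmb9, whose BMDM to MG difference in GL261 minus that in GEMM was -0.65 ± 0.21 on the log2 scale (adjusted p = 0.136), and B2m, at 0.59 ± 0.26 (adjusted p = 0.282, edgeR). A difference between the models in how BMDM and MG compare was thus not shown for any member.

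GL261 BMDM were next set against GEMM BMDM. Transporter, transactivator and Psmb10 were higher in GL261 BMDM, 4 members in all with none lower, against 10.2% of all genes called higher and 9.46% lower. Tap1 was at 522, 396 and 245 CPM in GL261 BMDM, against 187, 199 and 220 CPM in GEMM BMDM, a log2 fold change of 0.94 ± 0.27 (adjusted p = 0.0209, edgeR). Tap2 was at 304, 251 and 178 CPM in GL261 BMDM, against 149, 147 and 129 CPM in GEMM BMDM, a log2 fold change of 0.78 ± 0.24 (adjusted p = 0.0259). Neither gene overlapped between the groups, although tumour 80769 lay close to the GEMM range. The share of all genes that separated these groups was not counted.

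Nlrc5 was at 136, 122 and 67.6 CPM in GL261 BMDM, against 63.0, 43.9 and 69.3 CPM in GEMM BMDM, and the ranges overlapped through tumour 80769 (0.89 ± 0.29 on the log2 scale, adjusted p = 0.0403, edgeR). Psmb10 was at 209, 195 and 148 CPM in GL261 BMDM, against 133, 146 and 149 CPM in GEMM BMDM (0.37 ± 0.12, adjusted p = 0.0342), and tumour 80769 again lay within the GEMM range. The 4 calls were lost together, to 0 members, without GEMM BMDM 68702, BB30101 or BB30105 or without GL261 BMDM 80766 or 80767. Without both libraries of tumour 80769 there were 6 calls, H2-K1 (0.49) and Psmb9 (0.37) being added, while 1511 of all genes were called higher and 1540 lower. Of the 4, only Tap2 stayed called with the compared groups alone, and only Tap1 without the filter on low counts. Markers of other cells differed too: dendritic cell markers summed to 82.2 to 544 CPM in GL261 BMDM, against 609 to 1580 CPM in GEMM BMDM, T cell markers to 17.0 to 27.5 CPM, against 34.3 to 78.5 CPM, and the 5 B cell markers to 8.04 to 16.6 CPM, against 30.1 to 36.7 CPM. No gene of these 3 lists was at 0 in either group, and their part in the result was not tested. Psme2 (0.42) and Tapbpl (0.69) were also higher in GL261 BMDM, and Ifngr1 (-0.72) and Wdfy4 (-1.57) were lower.

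Finally BMDM were compared with blood monocytes, the circulating cells related to them. B2m, Tapbp and the immunoproteasome were higher in BMDM of both models, and H2-D1 was lower. In GL261 BMDM 7 members were higher and 1 lower, against 34.1% and 28.9% of all genes, and in GEMM BMDM 5 were higher and 1 lower, against 31.6% and 25.7%, so the share called was high throughout. Both comparisons use the same 5 monocyte libraries. B2m was at 5205 to 6454 CPM in GL261 BMDM and 5110 to 6120 CPM in GEMM BMDM, against 1696 to 2254 CPM in monocytes. Its log2 fold change was 1.57 ± 0.16 in GL261 BMDM (adjusted p = 2.27e-07) and 1.48 ± 0.16 in GEMM BMDM (adjusted p = 5.81e-07, edgeR).

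H2-D1 was at 6503, 6520 and 6299 CPM in GL261 BMDM and at 5983, 4275 and 4371 CPM in GEMM BMDM, against 11430.2, 8844, 8876, 8570 and 8537 CPM in monocytes. Monocytes were above every BMDM library, and the log2 difference was -0.52 ± 0.18 in GL261 BMDM (adjusted p = 0.0194) and -0.92 ± 0.19 in GEMM BMDM (adjusted p = 0.000404, edgeR). The GL261 call was lost without GL261 BMDM 80767 or 80769, or without the filter on low counts (adjusted p = 0.0702). H2-K1 went the other way, being higher in GL261 BMDM by 0.79 ± 0.18 (adjusted p = 0.000851) and by 0.42 in GEMM BMDM without a call (adjusted p = 0.0556). Psmb9 was higher by 1.18 ± 0.13 in GL261 BMDM (adjusted p = 5.88e-07) and 0.97 ± 0.13 in GEMM BMDM (adjusted p = 7.64e-06).

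Nlrc5 was at 56.7 to 96.8 CPM in monocytes, with a median of 61.1 CPM, and Tap1 at 244 to 346 CPM with a median of 284 CPM, so both were well above the normal MG values. Nlrc5 was called higher in GL261 BMDM (0.66 ± 0.26, adjusted p = 0.0334, edgeR), a call that held in 6 of 14 alternatives and was lost without GL261 BMDM 80766 or 80767 or monocytes 64819, 64820 or 64821, with RLE size factors (adjusted p = 0.0553) and with DESeq2 (adjusted p = 0.0624). Without both libraries of tumour 80769 all 10 members were called in GL261 BMDM, Tap1 (0.69) and Tap2 (0.68) being added and H2-D1 still lower (-0.49). In that setting 5122 of all genes were called higher and 4364 lower. In GEMM BMDM Tapbp was lost without BMDM 68702, and H2-K1 was gained without BMDM BB30101. In GL261 BMDM Tap1 and Tap2 were gained without BMDM 80769, and Tap2 without monocytes 64817. Neutrophil markers summed to 1.16 to 9.43 CPM in GL261 BMDM and 8.24 to 1982 CPM in GEMM BMDM, against 1236 to 22145 CPM in monocytes, and their part in these differences was not tested. Without monocytes 64820 and 64821, 7 members were called in GL261 BMDM, Nlrc5 being lost (adjusted p = 0.162), and 4 in GEMM BMDM, Tapbp and Psmb8 being lost (adjusted p = 0.0799 and 0.0558). All 7 genes of the standard proteasome and its activators were higher in BMDM of both models, led by Psmb7 (1.62 in GL261 and 1.7997 in GEMM) and Psmb6 (1.64 and 1.29). The chaperone Calr differed by 2.76 and 3.05. Mr1 was higher by 2.59 in BMDM of GL261 tumours and by 2.99 in those of GEMM tumours, and Irf2 was lower by a log2 difference of -1.34 and -1.16.

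By mean CPM on TMM-scaled sizes, GL261 BMDM came first for 8 of the 10 genes, with monocytes first for H2-D1 and GEMM MG first for B2m. For those 8 genes the range of the second group overlapped that of GL261 BMDM, so the top place is not separated beyond the spread. It also depends on the scaling, since on total counts GL261 MG came first for 5 of them (H2-K1, Tap1, Nlrc5, Psmb9 and Psmb10) and GL261 BMDM for 3. Normal MG came last for 9 genes and monocytes for B2m, where 23.2% of all genes tested had normal MG last, and on total counts GEMM MG were last for Tap2. Every normal MG library lay below every other library for 7 members, all but B2m, Tap2 and Tapbp, against 9.26% of all genes.

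By mean deviation over the members, both libraries of each tumour lay on the same side of their group means, in GL261 and in GEMM tumours. In GL261 tumour 80766 all 10 members were above the group mean in BMDM and in MG, and in tumour 80769 none were in BMDM and 1 was in MG. The mean log2 deviation from the group mean was 0.23 in BMDM and 0.32 in MG of tumour 80766, and -0.32 in BMDM and -0.40 in MG of tumour 80769. In GEMM tumour BB30105, 9 members were above the group mean in MG and 3 in BMDM, with mean log2 deviations of 0.15 and 0.0044. Mean deviations of GEMM libraries ran from -0.06 to 0.05 in BMDM and from -0.18 to 0.15 in MG, and normal MG from -0.02 to 0.02.

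Ifng, the gene of interferon gamma, which T and NK cells are known to make, was read 208, 53 and 2 times in GL261 BMDM of tumours 80766, 80767 and 80769 and 23, 31 and 2 times in GL261 MG. In GEMM BMDM it was read 13, 22 and 56 times, in monocytes 1 to 7 times, and in GEMM MG and normal MG it had 0 counts in each library. The tumour lowest in class I genes within GL261 was also the one with the fewest Ifng counts, and 8 members were called higher in GEMM MG, which had no Ifng count. These are single libraries, and no relation was tested. T cell markers summed to 17.0 to 27.5 CPM in GL261 BMDM and 11.9 to 20.3 CPM in GL261 MG, against 0.744 to 1.24 CPM in normal MG, where Cd3e and Cd8a were at 0. Their part in the class I levels was not tested.

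Across the 20 libraries, the members moved together to different degrees. In log2 CPM the mean Pearson r of a member with the other 9 was highest for Psmb8 (0.81) and lowest for B2m (0.38), and the closest pair was Tap1 and Nlrc5 (r = 0.97). Of 7247 genes with a mean of at least 20 CPM, those whose profile was most like the members' mean profile were Oas1g (r = 0.97), Tgtp2, Psme2, Isg15, Gbp2 and Cfb (0.95). For Nlrc5 alone they were Tgtp2 (r = 0.98), Usp18, Ube2l6, Zbp1, Irf7 and Oasl2 (0.97). These values describe libraries that fall into 6 groups and share tumours.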

How the data were processed

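The authors deposited raw read counts for each gene symbol. They are whole numbers with unequal library totals and carry no normalization. Build mm10 and the tools STAR 2.5.0e, HTSeq, CASAVA 1.8 and DESeq2 are listed in the submitters' processing notes, with no role stated. No source used here states the annotation or whether counting used strand, and near-identical H2 genes can share reads. Group and tumour number came from each title.

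The 10 members and the lists of other genes were chosen with earlier results of these data known. Genes were kept by filterByExpr with a minimum count of 10 and a minimum total of 15, scaled by TMM and fitted in R 4.3.3 with edgeR 4.0.16 by the quasi-likelihood method, robust, over 20 libraries and 6 groups. Adjusted p-values are Benjamini-Hochberg values over all 15363 genes in each of 9 comparisons, and a gene is called under 0.05. Standard errors come from the fold change and its F statistic. Alternatives were size factors by RLE, no filter, DESeq2 1.42.0, the compared groups alone, a block for the tumour number, each library left out in turn, and, chosen after seeing the data, monocytes without the 2 libraries of high Rn45s and GL261 without tumour 80769. Nothing in the labels says that libraries of a group came from separate animals beyond their numbers, and p-values measure the spread between these libraries.

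Deviations from the group means of same-numbered BMDM and MG libraries correlated at 0.25 to 0.49 across genes, those of different numbers at -0.41 to 0.12, so the fit with the tumour number as a block is read as a paired fit, while the values reported come from the fit without it. Libraries of a group differed beyond sampling noise, with a chi-square of at least 3.20 per degree of freedom. The named related genes are up to 3 called genes per list and comparison with the smallest adjusted p, and 6 genes most like the members' mean or Nlrc5. The values of 1 gene that this rule names are not reported here. Exon lengths are merged GENCODE vM21 exons. Promoters and positions are from RefSeq, GRCm38.p6, and the motif letters were chosen with these promoters in view. Counts behind the members are 94 reads or more in every library, so counting error is small beside the spread between libraries. The fit was also run on simulated counts with known changes, drawn without pairing of tumours and with most genes unchanged. Those settings differ from these data, so the run does not show how accurate the values reported are.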

Additional observations from a re-analysis of the deposited data

Results flagged for a closer look

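In monocytes H2-D1 was at 11430.2 CPM in library 64817, apart from the other 4 libraries, which lay between 8537 and 8876 CPM. The gap of this library to its nearest neighbour was large for the range of the group by Dixon's criterion. The criterion was applied to 10 genes in monocytes, the 1 group with more than 3 libraries, and chance alone flags about 1 in 20. Without library 64817, H2-D1 was still called lower in BMDM of both models.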

How the results depend on the processing

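In tumour MG against normal MG, the members called kept their direction and call in every alternative, except Tapbp in GL261 MG, which was called in 4 of 11. No called member changed direction in any alternative. With the tumour number as a replicate block, 8 members and 3675 genes were called in GEMM BMDM against MG, and the block changed no other member count. Each library left out in turn gave 2 to 4 members and 2001 to 2902 genes in GEMM BMDM against MG, 0 to 2 members and 1695 to 2548 genes in GL261 BMDM against MG, 0 to 4 members in GL261 BMDM against GEMM BMDM, and 102 to 459 genes in the interaction. With the compared groups alone, GL261 BMDM against MG had 833 genes and 0 members, GL261 BMDM against GEMM BMDM 1765 genes and 1 member, and the interaction 21 genes. Without the filter those comparisons had 0 members, 1 member and 156 genes, and DESeq2 called 800 genes in the interaction. Without tumour 80769, 2 members were called in GL261 BMDM against MG. The causes were not tested.

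Members that changed sign were uncalled throughout. Leaving out 1 library, log2 differences ran from -0.051 to 0.17 for H2-K1 in GEMM BMDM against MG; in GL261 BMDM against MG from -0.067 to 0.28 for H2-K1, -0.012 to 0.31 for H2-D1, -0.12 to 0.15 for B2m, -0.055 to 0.53 for Tap1 and -0.22 to 0.25 for Nlrc5. The range was -0.087 to 0.18 for Tap2 in GEMM MG against normal MG, -0.10 to 0.30 for H2-D1 and -0.086 to 0.34 for Tapbp in GL261 MG against GEMM MG, and -0.0028 to 0.18 for B2m and -0.028 to 0.20 for Psmb8 in GL261 BMDM against GEMM BMDM. In the interaction it was -0.21 to 0.24 for H2-K1, -0.36 to 0.080 for Tap2 and -0.21 to 0.16 for Tapbp. H2-K1 in the interaction was at -0.010 without the filter and -0.10 without tumour 80769, and B2m in GL261 BMDM against MG at -0.036 without that tumour.

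DESeq2 gave 50.6% of the genes called in GL261 BMDM against MG as higher, where the values reported had 61.1%, and 51.5% in GEMM BMDM against MG, where they had 61.0%. Against monocytes, the median log2 difference in GEMM BMDM, over the genes tested, was -0.03 with RLE size factors, -0.04 with DESeq2 and 0.21 without the filter, where TMM factors are taken over unfiltered genes, while 0.08 was reported, and under RLE Psmb8 and Psmb10 were no longer called (adjusted p = 0.0551 and 0.0501). Depth limits the monocytes most, at 5077787 counts or more per library.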
